A study of Mus musculus with 6 samples.

Results

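Reads over genes of small non-coding RNAs were described in poly-A selected RNA of mouse hearts, in 3 libraries from Ythdc1flox/flox mice (flox control) and 3 from mice with conditional knockout of Ythdc1 (CKO). Members are the annotated small nucleolar RNA (snoRNA), microRNA (miRNA) and small nuclear RNA (snRNA) loci off chromosomes X and Y with a mean level of at least 1 FPKM (fragments per kilobase of gene, scaled for library size) over the 6 libraries. There were 146 of them among 5099 annotated loci of these classes, 4795 of which lie off X and Y: 53 snoRNA, 72 miRNA and 21 snRNA loci. The members were chosen by their mean FPKM over all 6 libraries, so the level is a description. At the threshold, the snRNA locus Gm24867 (1.01 FPKM) and Mir6338 (1.02 FPKM) lay just inside, and Mir5100 (0.9997 FPKM) and the snoRNA locus Gm25128 (0.989 FPKM) just outside. No reads at all fell on 4167 of the 4795 loci, 86.9%.

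snoRNAs guide chemical modification of ribosomal and spliceosomal RNA: those with C and D boxes guide ribose methylation, and those with an ACA box guide conversion of uridine to pseudouridine. In mammals most are cut from introns of host genes. Many miRNA hairpins also lie in introns; the nuclear enzyme Drosha releases them from the primary transcript, Dicer trims them, and the mature strand silences messenger RNAs that match its seed, bases 2 to 8. snRNAs form the core of the spliceosome and have no poly-A tail, and the genome carries many copies and pseudogenes of them. The heart is known for miRNAs encoded inside its myosin heavy chain genes, miR-208a in Myh6 (alpha-myosin, the main adult mouse form) and miR-208b in Myh7 (beta-myosin, the fetal form). A library of long fragments from poly-A RNA does not capture mature miRNAs; it counts fragments of longer RNA that overlap the annotated locus. The values below are therefore read counts over the loci, not levels of mature small RNAs.

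The sequences that the results turn on are the following. Of 72 miRNA loci, 48 were matched by symbol in RefSeq (GRCm38.p6). Among the mature strands compared, only those of Mir208a and Mir208b shared a seed, which is in capitals here. Not every mature strand was listed: for Mir23b only miR-23b-5p was, so its other strand was not compared with those of Mir23a. Whether further loci share a seed was not tested. Mir27a and its neighbour Mir23a have different seeds, also in capitals.
mmu-miR-208b-3p: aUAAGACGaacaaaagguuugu
mmu-miR-208a-3p: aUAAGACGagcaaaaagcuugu
mmu-miR-208b-5p: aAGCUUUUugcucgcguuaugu
mmu-miR-208a-5p: gAGCUUUUggcccggguuauac
mmu-miR-27a-3p: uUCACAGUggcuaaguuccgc
mmu-miR-23a-3p: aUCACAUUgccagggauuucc
In genome order, miR-208a-3p lies at chr14:54949072-54949093 and miR-208b-3p at chr14:54975710-54975731, both on the minus strand, while miR-23a-3p lies at chr8:84208563-84208583 and miR-27a-3p at chr8:84208727-84208747 on the plus strand.

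Of the snoRNA loci, Snord91a (chr11:74905424-74905516) and Gm22771 (chr11:74906109-74906199) lie in neighbouring introns of Tsr1 on the plus strand and share a run of 24 bases, in capitals. These and the sequences after them are GENCODE release M21 transcripts on GRCm38, with DNA letters. They are shown because Snord91a passed the test between groups and Gm22771 is its partner in the same host.
Snord91a: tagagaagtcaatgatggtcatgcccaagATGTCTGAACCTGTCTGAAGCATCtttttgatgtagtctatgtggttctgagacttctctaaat
Gm22771: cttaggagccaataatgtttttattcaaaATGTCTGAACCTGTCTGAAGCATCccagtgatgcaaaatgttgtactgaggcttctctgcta
Snord104 (chr11:106500993-106501062, plus strand) held the most reads of any snoRNA member, and its C box TGATGA and D box CTGA are in capitals.
Snord104: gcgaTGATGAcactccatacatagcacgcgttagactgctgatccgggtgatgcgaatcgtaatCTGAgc
Gm22358 (chr13:24811447-24811568, minus strand) also passed the test, and its ACA box, 3 bases from the end, is in capitals.
Gm22358: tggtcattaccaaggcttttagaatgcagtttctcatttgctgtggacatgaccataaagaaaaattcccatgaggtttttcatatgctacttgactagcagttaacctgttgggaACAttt
The miRNA-class locus Gm23935 (chr16:11144125-11144181, plus strand) took more reads than all the other members together, and the same 57 bases, 73.7% G or C, also make up Gm24270 (chr9:56223715-56223771, minus strand).
The annotation names its class; what RNA these reads came from was not tested, and copies in repeated sequence outside the annotated loci were not searched.
Gm23935: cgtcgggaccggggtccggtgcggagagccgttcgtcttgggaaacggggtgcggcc

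The labels describe 3 independent biological replicates per group, fed normal chow for 15 days. They write CKO where the series text writes HKO; the driver of the deletion, age and sex are not given in the sources used here. Reads recovered from the FPKM numbered 17434296 to 19360428 per library. Ythdc1, the nuclear reader of N6-methyladenosine that was targeted, stood at 4.31, 3.64 and 4.11 FPKM in flox controls 1 to 3 and at 2.39, 2.57 and 2.34 FPKM in CKO 1 to 3. It fell by 0.54 on the log2(FPKM + 1) scale (SE 0.09; adjusted p = 0.015, limma), and an exact 2-sided permutation test gave 0.1, the smallest p that 3 against 3 libraries allow. With a library left out the adjusted p was 0.026 to 0.071, above 0.05 without flox control 1, flox control 3 or CKO 3. CKO 3 held 4037 reads of the X-inactivation RNA Xist against 0 to 5 in the other libraries, so sex-linked expression differed within the CKO group. All 8 markers of cardiac muscle cells were present in every library, with summed levels of 16107 to 19745 FPKM in flox controls and 12804 to 16834 FPKM in CKO. Of these, Tnni3 and Nkx2-5 fell (adjusted p = 0.031 and 0.042, limma). Of 7 fibroblast genes tested only Tcf21 was called, higher in CKO (0.015, limma). Of 6 pericyte and smooth muscle genes tested only Abcc9 was called, lower in CKO (0.016, limma). The sums of both lists overlapped between the groups. They were 476 to 615 FPKM in flox controls against 546 to 789 in CKO for fibroblast genes. For pericyte and smooth muscle genes they were 433 to 792 against 378 to 544 FPKM. The atrial sum was 153 to 395 FPKM in flox controls and 547 to 2100 FPKM in CKO, with Nppa higher and Sln lower. The median difference over the 4 atrial genes was -1.99 on the log2(FPKM + 1) scale, opposite to the sum. The skeletal muscle sum was 386 to 508 FPKM in flox controls against 192 to 348 FPKM in CKO. Only 1 of its 5 genes reached a mean of 1 FPKM and was tested, with a difference of -0.77. The part of these shifts in the results below was not tested. Summed macrophage markers were 821 FPKM in CKO 1 against 106 to 266 FPKM in the other libraries. In bulk tissue, fewer cells of a type and less RNA per cell cannot be told apart.

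These loci are short and thinly covered, which sets how far their values can be read. Lengths ran from 54 to 246 bases, with a median of 90, and fragments of 370 to 420 bp were selected, so a counted fragment reaches outside the locus. FPKM divide such fragments by the short locus length alone, so levels of a locus and of its longer host are not like for like. Averaged over the libraries with a read, a single read was worth 0.223 to 1.01 FPKM, depending on the locus length. Total reads over the 6 libraries ranged from 7 to 8924, with a median of 25, against a median of 2790 for all 12144 genes tested. At least 60 reads were reached by 25 members, and 47 had no read in at least 1 library. Over the members, Pearson correlations between libraries on the log2(FPKM + 1) scale were 0.723 to 0.862, against 0.940 to 0.984 over all genes tested; these are across genes, which are not independent replicates. Identical copies elsewhere among small RNA loci were found for 8 members, where the assignment of reads is uncertain.

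Few small RNA loci passed the test between CKO and flox control. With limma on log2(FPKM + 1), fitted on all 12144 genes, 12 of 146 members passed an adjusted p of 0.05, 7 higher and 5 lower in CKO. That is 8.22%, against 11.2% of all genes tested (5.69% higher and 5.49% lower). By class, 2 of 53 snoRNA loci fell and none rose; 6 of 72 miRNA loci rose and 2 fell; 1 of 21 snRNA loci rose and 1 fell. The groups did not overlap for 26 members, 17.8%, against 34.3% of all genes tested. At an unadjusted p under 0.05 there were 30 members by limma, against 27.7% of all genes tested. Voom, the limma method for counts, run on the recovered reads, gave 18 members, against 26.1% of all genes. Voom called 2 members at an adjusted p under 0.05, Mir208b and the miRNA locus Gm23841, against 11.0% of all genes tested. The median difference over the members was 0.07 on the log2(FPKM + 1) scale, with 0.05 for snoRNA, 0.16 for miRNA and -0.03 for snRNA loci, beside 0.01 for all genes tested. The sign of the median over the members turned with stricter filters, to -0.15 at a mean of at least 5 FPKM and -0.24 at 10 reads per library, and it was 0.18 with a pseudocount of 0.01.

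Of the 12 called loci, 3 had at least 60 reads in all: Mir208b and Snord91a, which fell, and the miRNA locus Gm22918, which rose. The other 9 had 8 to 24 reads over the 6 libraries, 6 of them higher and 3 lower in CKO. All 9 reached 1 FPKM in the mean of their higher group only, so that with such a filter they had to differ, and their count says nothing about the class. Among the 108 members with a mean of at least 1 FPKM in both groups, the 3 loci with at least 60 reads were the ones called. When each library was left out in turn, 2 to 7 members were called higher and 3 to 8 lower, with the fewest higher without flox control 3 or CKO 2 and the most lower without CKO 1. Mir208b alone stayed called in all 6 fits.

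**Figure D1:**
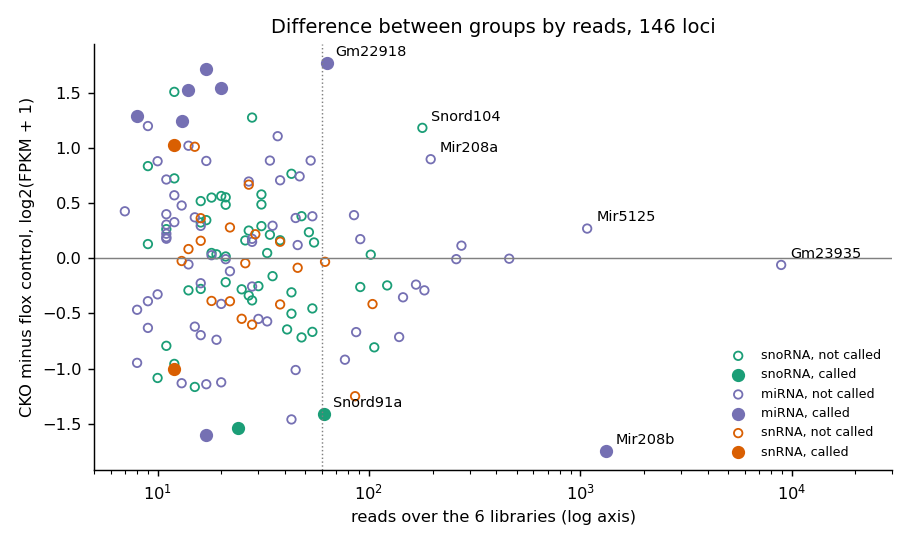
Difference between groups (CKO minus flox control on the log2(FPKM + 1) scale, vertical axis) against reads over the 6 libraries (log axis) for the 146 loci; filled points passed an adjusted p of 0.05 (limma), and the dotted line marks 60 reads. Mir208b, with 1328 reads, is the best covered of the called loci, while 9 of the 12 called loci lie at 8 to 24 reads.

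Mir208b carried the clearest difference. Its hairpin (chr14:54975700-54975776, minus strand, GRCm38) lies in intron 31 of 40 of Myh7, an intron of 461 bases, 102 bases from the 5′ splice site. Reads over it numbered 360, 296 and 361 in flox controls 1 to 3 against 96, 84 and 131 in CKO 1 to 3. As levels these were 277, 219 and 235 FPKM against 69.5, 56.1 and 93.9 FPKM. Every CKO library lay below every flox control, at a mean of 73.1 ± 19.2 FPKM against 244 ± 29.7 FPKM (SD, n = 3 each). The locus fell by 1.75 on the log2(FPKM + 1) scale (SE 0.20; adjusted p = 0.0067, limma), and voom gave -1.72 with an adjusted p of 0.0034. Adjusted p stayed between 0.0012 and 0.038 over all alternatives, left-out libraries included.

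The level of the host went the other way without passing the test. Myh7, the beta-myosin heavy chain, stood at 23.7, 21.1 and 21.1 FPKM in flox controls and at 257, 35.8 and 91.3 FPKM in CKO. All 3 CKO libraries lay above all flox controls, but they varied widely, and the difference of 2.06 did not pass the test (SE 0.63; adjusted p = 0.087, limma); without CKO 2, the lowest of the 3, it passed at 0.030. CKO 1, with the highest Myh7, is also the library with the most macrophage RNA; whether that bears on Myh7 was not tested. Fragments reach beyond a short locus, so the FPKM of Mir208b and of its host are not like for like. Per annotated length, Mir208b was above its host in all 3 flox controls, at means of 244 against 21.9 FPKM. In CKO it was below its host in CKO 1, at 69.5 against 257 FPKM, above it in CKO 2, at 56.1 against 35.8 FPKM, and close to it in CKO 3, at 93.9 against 91.3 FPKM. The log2 ratio of Mir208b reads to Myh7 reads was -3.26, -3.43 and -3.32 in flox controls and -8.69, -6.15 and -6.76 in CKO. The ratios of the groups did not overlap and differed by -3.86 on average; a change in either gene moves them. An exact 2-sided permutation test gave 0.1, the smallest p allowed.

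Mhrt, a heart long non-coding RNA antisense to Myh7 on the plus strand (chr14:54968678-54974349), ends 1350 bases before Mir208b. It stood at 35.8, 25.6 and 23.7 FPKM in flox controls and at 10.2, 9.27 and 12.5 FPKM in CKO. It fell by 1.32 on the log2(FPKM + 1) scale (SE 0.18; adjusted p = 0.0096, limma; at most 0.034 with any library left out), so Mhrt and Mir208b fell while Myh7, which overlaps both, was higher in every CKO library. Strand marking is not described for these libraries. Reads of either strand over Mir208b, and reads where Mhrt and Myh7 overlap, therefore cannot be told apart.

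Mir208a (chr14:54949060-54949142, minus strand) lies in intron 29 of 38 of Myh6, 195 bases from the 5′ splice site of an intron of 542 bases. Reads over it numbered 41, 11 and 19 in flox controls and 30, 47 and 48 in CKO, so that flox control 1 lay within the CKO range. The difference was 0.90 (adjusted p = 0.25, limma) and did not pass. Myh6 stood at 4092, 3882 and 3559 FPKM in flox controls and 2481, 3344 and 3812 FPKM in CKO, a difference of -0.28 that did not pass either (adjusted p = 0.48). The log2 ratio of Mir208a reads to Myh6 reads was -13.5, -15.3 and -14.6 in flox controls and -13.3, -13.2 and -13.2 in CKO. All CKO ratios thus lay above all flox control ratios, by 1.22 on average, although neither gene alone was called. Mir208a was at 0.611% of the per-length level of its host, where Mir208b was above its host in the flox controls. Both comparisons set a short locus against a long gene and are not like for like.

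**Figure D2:**
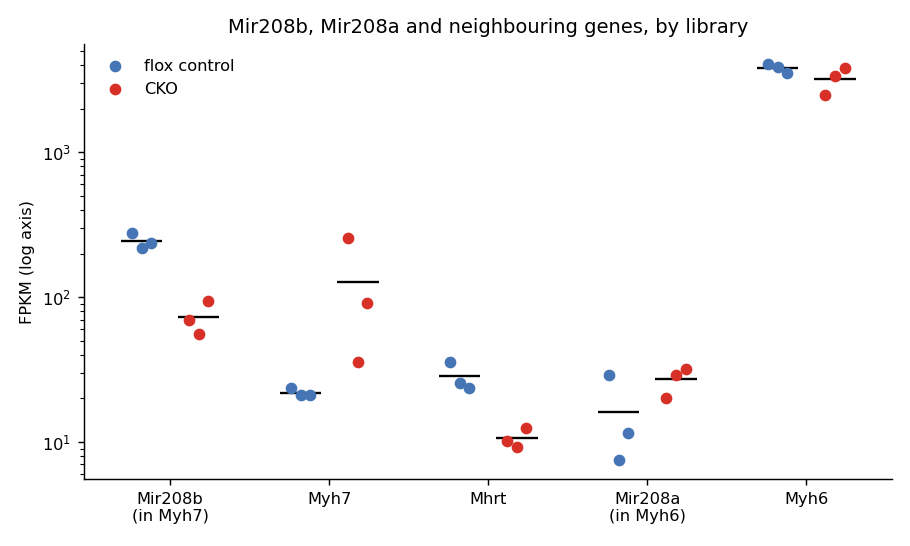
FPKM of Mir208b, Myh7, Mhrt, Mir208a and Myh6 in each library (points; log axis), with group means as lines. Mir208b and Mhrt are lower in all 3 CKO libraries, Myh7 is higher in all 3 but spreads from 35.8 to 257 FPKM, and Mir208a and Myh6 overlap between the groups.

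Myh7b, the third myosin gene with an intronic miRNA, fell from 20.9 ± 2.53 to 13.4 ± 1.32 FPKM (SD, n = 3 each), a log2 difference of -0.60 (adjusted p = 0.029, limma). The call held in 1 of the 6 fits with a library left out, that without CKO 1, and voom gave 0.058. Its miRNA locus, Mir499, had no reads in any of the libraries, like Mir133b, Mir1a-2, Mir27b and Mir24-1; Mir24-2 had 1 read.

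Loci of the miR-1, miR-133 and miR-143/145 families, known from muscle and vessel wall, did not pass the test. Mir133a-2, one of the hairpins of the muscle miRNA miR-133a, held 82, 75 and 69 reads in flox controls against 75, 60 and 100 in CKO. Mir1a-1, its partner in a cluster of 9435 bases, held 0, 0 and 1 reads against 4, 3 and 1. Mir133a-1 held 21, 36 and 42 reads against 43, 22 and 19, and Mir1b, on the opposite strand nearby, 35, 11 and 39 against 22, 24 and 14. These values overlapped between the groups, except that Mir1a-1 was separated on the FPKM scale with the same single read in flox control 3 and CKO 3. Mir145a, a miRNA of smooth muscle, held 37, 33 and 58 reads against 37, 61 and 33, with a difference of -0.01 (adjusted p = 0.99). Its cluster partner Mir143 held 7, 2 and 9 against 16, 13 and 6.

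Mir27a, whose mature strand is known for roles in fat and vessel cells, was called on few reads. It held 0, 1 and 1 reads in flox controls against 3, 4 and 4 in CKO, rising by 1.25 (SE 0.21; adjusted p = 0.018, limma). Without CKO 2 the adjusted p was 0.058 and without CKO 3 it was 0.060. Mir23a, from the same primary transcript, held 2, 6 and 2 reads against 6, 6 and 15, a difference of 1.11 that did not pass (adjusted p = 0.16). Summed over the pair, which spans 241 bases, reads were 2, 7 and 3 against 9, 10 and 19, without overlap. Mir27a reached 1 FPKM in the CKO mean only, so this sum is no separate result. Sums over most neighbouring pairs of members overlapped between the groups. The next gene on the same strand with a mean of at least 1 FPKM, Gm26532, starts 162 bases after Mir27a. Mir24-2, with 1 read in CKO 1, starts in between. Gm26532 stood at 11.0, 15.0 and 9.74 FPKM against 11.2, 12.9 and 15.8 FPKM, which overlap (adjusted p = 0.63, limma).

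Gm22918 (chr10:100139501-100139610, plus strand) held 3, 2 and 5 reads in flox controls against 9, 15 and 29 in CKO. It rose by 1.77 (SE 0.38; adjusted p = 0.032, limma), the largest increase among the members. The call was lost without flox control 1 (0.108), flox control 2 (0.099), flox control 3 (0.0705) or CKO 2 (0.078), and voom gave an adjusted p of 0.0529. It lies inside AC167229.1 of the opposite strand, which stood at 0.351, 0.844 and 0.372 FPKM against 0.908, 1.45 and 2.21 FPKM. That gene was higher in every CKO library too, with a difference of 0.71 that did not pass (adjusted p = 0.097). Reads of the opposing pair cannot be told apart without strand. An identical small RNA locus, Gm25287, held no reads.

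The remaining called miRNA loci rest on a handful of reads each. Mir7651, in an intron of Zmiz2, held 0, 1 and 1 reads in flox controls against 5, 4 and 3 in CKO (adjusted p = 0.021, limma; 0.059 without CKO 2 and 0.051 without flox control 3). Mir7237, in an intron of Banp, held 0, 0 and 1 against 3, 2 and 2 (adjusted p = 0.030), and kept its call in 1 of the 6 fits with a library left out, that without flox control 3. Mir674 held 1, 1 and 0 against 5, 3 and 10 (adjusted p = 0.042), with its call kept without CKO 2 only. Neither host passed the test: Zmiz2 differed by 0.02 and Banp by -0.11, adjusted p 0.89 and 0.74. Gm24325 held 2, 0 and 0 reads against 3, 6 and 6 (adjusted p = 0.044), with the call kept without flox control 1 or CKO 1 only. Gm23841 went the other way, with 3, 6 and 7 reads against 1, 0 and 0 (adjusted p = 0.013 by limma; 0.053 without flox control 2 and 0.052 without flox control 3). Its reads lie inside Limch1 of the opposite strand.

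**Figure D3:**
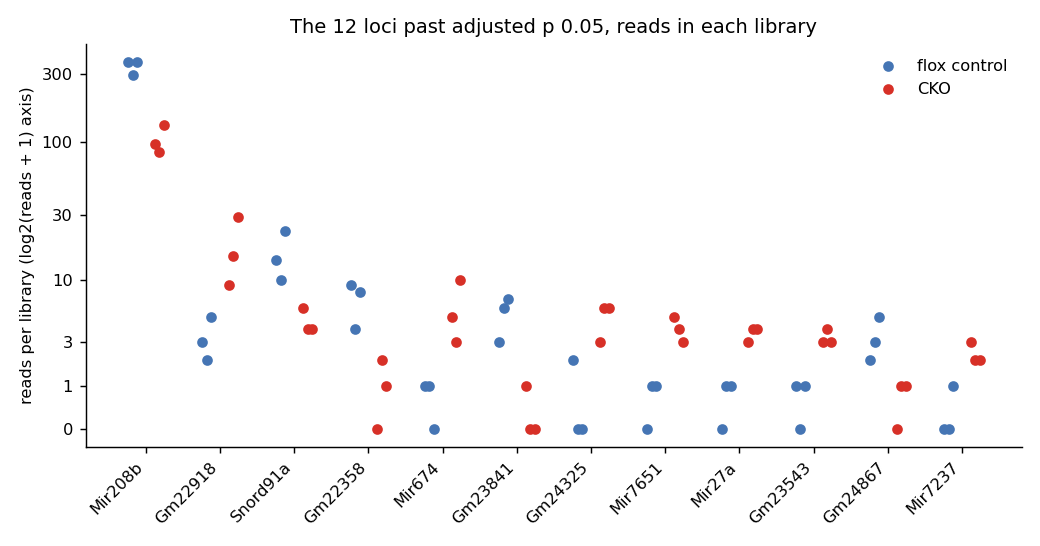
Reads in each library for the 12 loci past an adjusted p of 0.05 (limma), in order of total reads; the vertical axis is spaced as log2(reads + 1). After Mir208b, Gm22918 and Snord91a, all called loci have at most 10 reads in any library, and the 2 groups differ by a few reads.

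The most covered miRNA-class loci apart from Mir208b did not pass the test. Gm23935 held 1199, 1266 and 2076 reads in flox controls against 1811, 1179 and 1393 in CKO, a difference of -0.06 (adjusted p = 0.91, limma). Gm24270, with the identical sequence, held 31, 33 and 68 against 65, 34 and 43. Flox control 3 and CKO 1 were the highest library of their group for both. Their hosting regions differ: Gm23935 lies opposite Zc3h7a and Gm24270 inside Peak1. Another copy, Gm24245, held no reads. Which of the copies a read came from cannot be told apart over the locus itself. Mir5125, in intron 11 of 13 of the splicing factor gene Srrm2, held 141, 150 and 193 reads in flox controls against 220, 190 and 184 in CKO. Its FPKM were 106, 108 and 123 against 155, 124 and 129, which just fail to overlap, with a difference of 0.27 that did not pass (SE 0.13; adjusted p = 0.24).

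Among snoRNA loci, Snord91a was the best covered that passed. It lies in intron 10 of 14 of Tsr1, a ribosome maturation factor, and held 14, 10 and 23 reads in flox controls against 6, 4 and 4 in CKO. All CKO libraries were below all flox controls, at 2.73 ± 0.757 against 9.14 ± 3.15 FPKM (SD, n = 3 each). The locus fell by 1.42 (SE 0.25; adjusted p = 0.019, limma). The call was lost without flox control 1 (0.076), CKO 2 (0.060) or CKO 3 (0.062), and voom gave 0.073. Gm22771, in the next intron, held 5, 5 and 6 reads against 3, 3 and 8, and the pair together 19, 15 and 29 against 9, 7 and 12. The pair sum includes the called locus, and the reads of Gm22771 alone overlapped. Tsr1 stood at 3.29 ± 0.234 against 3.54 ± 0.227 FPKM, a difference of 0.08 (adjusted p = 0.60). The log2 ratio of Snord91a to Tsr1 reads was -3.93, -4.28 and -3.50 in flox controls and -5.12, -5.91 and -5.84 in CKO, separated, whereas that of Gm22771 overlapped.

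Gm22358, the other called snoRNA locus, held 9, 4 and 8 reads in flox controls against 0, 2 and 1 in CKO (adjusted p = 0.025, limma). The call was lost without CKO 3 (0.068), flox control 1 (0.092) or flox control 3 (0.085). It lies opposite BC005537. Snord88c, in an intron of 2410002F23Rik, just missed the threshold with 4, 3 and 5 reads against 2, 1 and 0 (adjusted p = 0.0505).

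Snord104, a box C/D snoRNA, lies in no annotated gene of the release; the nearest gene with at least 1 FPKM, Tex2, is 1085 bases away on the other strand. It held 7, 31 and 20 reads in flox controls against 47, 37 and 37 in CKO, separated on both scales. Its difference of 1.18 did not pass the test (SE 0.45; adjusted p = 0.15, limma), flox control 1 lying far below the rest of its group. Snord123 lies in Snhg18, a snoRNA host RNA that rose from 5.89 ± 0.865 to 9.27 ± 0.796 FPKM (log2 difference 0.58; adjusted p = 0.028). It held 0, 3 and 5 reads against 6, 6 and 8, a difference of 1.28 that did not pass (adjusted p = 0.18). Host and snoRNA were both higher in every CKO library.

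Other well covered snoRNA loci showed no called difference. Snora31, an H/ACA snoRNA in Tpt1, held 17, 13 and 20 reads against 20, 16 and 16. Gm24119 in Slc25a3 held 18, 27 and 22 against 18, 19 and 18, and Gm24494 in Rabggtb 17, 12 and 21 against 15, 13 and 13. Gm25835 in Eif4a1 held 8, 7 and 10 against 6, 13 and 11, and Gm22270 in Rpl5 5, 9 and 18 against 3, 13 and 6. Snora17 held 13, 25 and 27 against 3, 17 and 21, with CKO 1 far below every other library and an adjusted p of 0.39. The snRNA locus Gm27343 shows the same low value in CKO 1, with 12, 21 and 25 reads against 2, 16 and 10. DQ267102, in the imprinted RNA Rian, held 0, 0 and 1 reads against 5, 5 and 1 (adjusted p = 0.070).

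A search for box letters assigned 30 of the 53 snoRNA loci to a kind, and 9 of the 14 members named Snord to the C/D kind. A C box (TGATGA in the first 20 bases) with a D box (CTGA in the last 15 bases), searched on the annotated strand, was present in 16 of 53 members, 30.2%, against 20.2% of all 1507 annotated snoRNA loci. An ACA box 3 bases from the end was present in 14, 26.4%, against 18.3%. The remaining 23 members held neither the C and D pair nor the ACA box. Some of them held a single box, such as Snord72 with a D box only and Snord53 with a C box only. The C/D loci had a median length of 72 bases and the ACA loci of 132 bases. Sorted by this search, none of the 16 C/D loci, 1 of the 14 ACA loci (Gm22358) and 1 of the 23 others (Snord91a) was called. The share over all genes tested was 11.2%. Snord91a is a C/D snoRNA by its name, and in its sequence above CTGA lies just outside the bases searched. The counts therefore do not show that no C/D locus was called. Median differences in the same order were 0.14, 0.04 and 0.02 on the log2(FPKM + 1) scale.

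The snRNA members are not the named spliceosomal genes. Of 11 named snRNA genes in the table, 9 had no reads; Rnu2-10 had 1 read and Rnu6-ps2 had 6. Of the 21 member loci, 17 aligned best with Rnu6 or its copy Rnu6-ps2. Gm22307 matched Rnu6 at 99.1% of aligned columns and Gm24497 matched Rnu2-10 at 98.95% over 191 columns, while Gm23458 matched Rnu1b2 at 72.1%. Gm27343 matched Rnu7, the snRNA of histone RNA processing, at 88.7% over 53 columns.

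Among them Gm23543 rose on 1, 0 and 1 reads in flox controls against 3, 4 and 3 in CKO (adjusted p = 0.024, limma); it lost its call without CKO 2, CKO 3, flox control 1 or flox control 3 (0.056 to 0.074). Gm24867 fell on 2, 3 and 5 reads against 0, 1 and 1 (adjusted p = 0.043), and lost its call whichever library was left out. The best covered, Gm25135 in Adgrf5, held 19, 18 and 23 reads against 14, 13 and 17. Every CKO library was below every flox control, with a difference of -0.41 (SE 0.12) that did not pass (adjusted p = 0.075). Gm23318 in Mtor held 6, 9 and 17 against 12, 11 and 7, which overlap, and so did Gm25596 with 8, 6 and 9 against 4, 11 and 8.

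Summed over loci, all 3 classes overlapped between the groups. Reads over the 53 snoRNA loci were 17.6 ± 2.53 CPM (reads scaled by the gene-assigned total of the library) in flox controls and 17.6 ± 1.46 in CKO (SD, n = 3 each; exact 2-sided permutation p = 1). Reads over the 21 snRNA loci were 6.49 ± 1.52 against 5.74 ± 1.38 CPM (exact permutation p = 0.6). Reads over all 72 miRNA loci were 140 ± 27.3 against 129 ± 23.1 CPM, which overlap (exact permutation p = 0.5), and most of them lay on Gm23935. Without Gm23935 and Gm24270, of identical sequence, the miRNA loci gave 55.2 CPM against 46.2 CPM, with no overlap and the smallest possible exact p of 0.1. Without Mir208b as well they gave 36.6 ± 3.20 against 40.5 ± 1.79, which overlap (exact permutation p = 0.2).

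**Figure D4:**
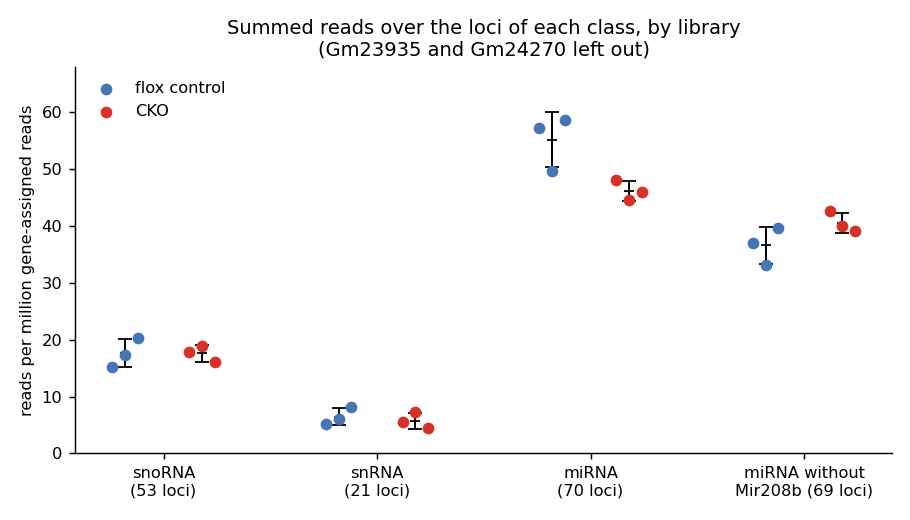
Reads in CPM (scaled by the gene-assigned total) summed over the loci of each class in each library (points), with the mean and SD of 3 libraries. Gm23935 and Gm24270 are left out of the miRNA sums, which are then lower in CKO with Mir208b and overlap without it; snoRNA and snRNA sums overlap.

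Most members sit in introns of other genes. Inside a gene of the same strand lay 99 members with 90 distinct hosts, 98 of them wholly in introns; 44 of 53 snoRNA, 45 of 72 miRNA and 10 of 21 snRNA loci had such a host. Of the other 47, 32 lay inside a gene of the opposite strand and 15 in no gene. The host intron had a median length of 892 bases for snoRNA, 1780 for miRNA and 4973 for snRNA loci. Hosts were protein-coding for 90 members, among them the ribosomal protein genes Rpl4, Rpl5, Rpl17, Rpl23 and Rps3a1 and the translation initiation factor gene Eif4a1. The median member reached 21.6% of its host's FPKM, and 20 members were above their host. These levels set short loci against longer genes and are not like for like.

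Hosts were called at a share not far from that of all genes. Of 85 hosts tested, 4 rose and 3 fell, 8.24%, against 11.2% of all genes. Rab35, Snhg18, Pi4kb and Odc1 rose; Pnpla3, Cyth1 and Josd2 fell. Pnpla3, a lipid droplet enzyme, had the largest change among the called hosts, from 5.50 ± 0.925 to 0.852 ± 0.189 FPKM (log2 difference -1.81; adjusted p = 0.0033, limma). Pnpla3 kept its call with each library left out (adjusted p up to 0.023); the other 6 lost theirs in 4 to 6 of the 6 fits. Of the 12 called members, only Mir208b, Snord91a, Mir7651 and Mir7237 have a same-strand host, and none of these hosts was called. Mir7052, in Josd2, held 17, 22 and 11 reads against 14, 4 and 9, a difference of -0.92 that did not pass (adjusted p = 0.24), while Josd2 fell from 37.8 ± 2.26 to 24.4 ± 4.29 FPKM (adjusted p = 0.041).

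The ratio of member to host reads was separated between the groups for 9 of 99 pairs, 9.09%, 6 higher and 3 lower in CKO. Over all 206 nested same-strand gene pairs with enough signal it was separated for 16.5% (8.74% higher and 7.77% lower). These pairs, with at least 1 FPKM in both genes, include member pairs. Among the 112 whose contained gene is not a member, the ratio was separated for 22.3%. The 99 member pairs also hold some hosts under 1 FPKM. Among pairs with at least 60 member reads the ratio was separated for 3 of 17, 17.6%, against 21.6% of such nested pairs, members included. Those 3 are Mir208b and Snord91a, lower relative to the host, and Mir208a, higher. The other 6 (Gm25788, Gm22107, Snord88c, Mir7651, DQ267102 and Mir7237) rest on 8 to 16 reads each. Across the 94 pairs with both genes tested, member and host differences had a Pearson r of 0.03 and a Spearman rho of 0.11, and 53 had the same sign. Across the 17 pairs with at least 60 reads, r was -0.33 and rho 0.18, and without Mir208b, over 16 pairs, r was 0.29 and rho 0.41. These correlations are across loci that share libraries, and describe the pairs only.

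**Figure D5:**
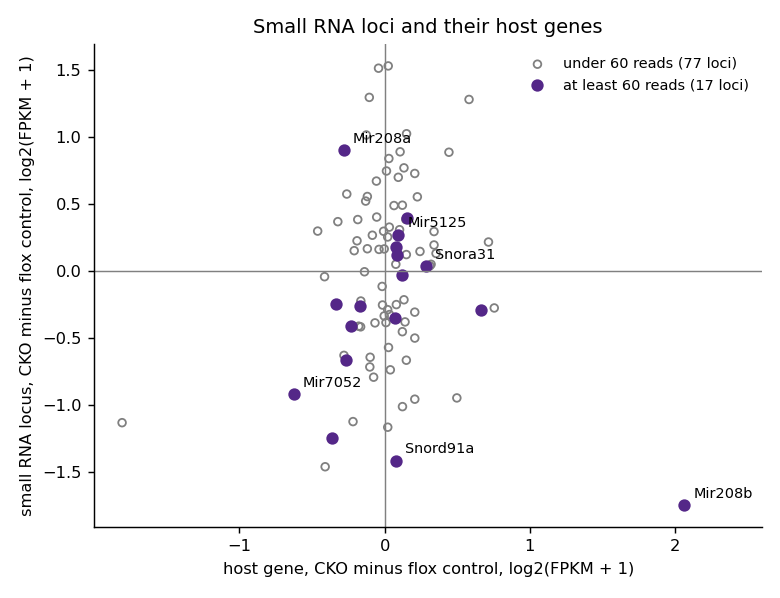
Difference between groups of each small RNA locus (vertical axis) against that of its host gene (horizontal axis), both CKO minus flox control on the log2(FPKM + 1) scale, for 94 pairs; filled points have at least 60 reads. Mir208b lies alone at the lower right, with a host at 2.06 and a locus at -1.75, and the point at far left is in Pnpla3.

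Genes that make or use these RNAs were taken as lists, chosen with earlier results of these data known. None of 12 tested genes of C/D snoRNA particles and their assembly passed the test, and none of 7 of H/ACA particles. Nor did any of 15 of intron turnover and nuclear trimming. The share over all genes was 11.2%, at which lists this short would hold few calls, so these counts say little about the lists. Those with the smallest adjusted p (limma) in the first 2 lists were Pih1d1, an assembly factor, at 10.9 ± 1.14 against 14.3 ± 1.37 FPKM (0.084), and the H/ACA pseudouridine synthase Dkc1, at 5.01 ± 0.435 against 3.77 ± 0.237 FPKM (0.061). The corresponding value for the nuclear exosome nuclease Exosc10 in the third list was 0.10.

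Of 19 tested genes of miRNA processing and action, 3 rose and none fell, 15.8% against 11.2% of all genes. They act at the silencing step: Tnrc6a rose from 4.73 ± 0.415 to 9.72 ± 1.47 FPKM (log2 difference 0.90; adjusted p = 0.0093, limma), Tnrc6c from 4.95 ± 0.712 to 8.91 ± 0.205 FPKM (0.74; adjusted p = 0.010) and Ago2 from 4.47 ± 0.188 to 6.24 ± 0.645 FPKM (0.40; adjusted p = 0.039). Tnrc6 proteins bind Argonaute and recruit deadenylases. Every CKO library was above every flox control for all 3 genes. Tnrc6a and Tnrc6c kept their calls with each library left out, whereas Ago2 kept its call without CKO 1 only (0.035 to 0.126) and voom gave 0.057. The remaining 16, nuclear and cytoplasmic processing enzymes among them, did not pass.

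Of 36 tested genes of snRNA transcription, 3′ processing and particle assembly, 1 rose and 3 fell, 11.1%, the background share. The Integrator subunits, which cut snRNA transcripts at the 3′ end, moved in both directions: Ints7 fell from 5.77 ± 0.543 to 3.39 ± 0.212 FPKM (adjusted p = 0.012, limma) and Ints10 from 4.45 ± 0.181 to 2.67 ± 0.260 FPKM (adjusted p = 0.013), while Ints5 rose from 3.66 ± 0.455 to 5.08 ± 0.133 FPKM (adjusted p = 0.049). Snupn, the import adaptor of snRNA particles, fell from 5.57 ± 0.0885 to 3.87 ± 0.272 FPKM (adjusted p = 0.021). Ints7 kept its call with each library left out; Ints10 lost it without flox control 1 (0.057) or flox control 3 (0.054), Snupn without flox control 1, 2 or 3 or CKO 2 (up to 0.087) and Ints5 in all 6 fits (0.076 to 0.141). Voom called Ints7 and Ints10 but not Snupn (0.107) or Ints5 (0.106).

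Of 13 tested long non-coding hosts of snoRNAs, 3 rose and none fell, 23.1% against 11.2% of all genes. Beside Snhg18, Snhg5 rose from 3.90 ± 0.313 to 6.30 ± 0.967 FPKM (adjusted p = 0.029, limma) and Gas5 from 8.11 ± 0.795 to 11.2 ± 0.807 FPKM (adjusted p = 0.042). Snhg1 stood at 3.43 ± 0.142 against 4.25 ± 0.472 FPKM (adjusted p = 0.15). Snhg18 lost its call in 4 of the 6 fits with a library left out (adjusted p up to 0.108), Snhg5 in 5 (up to 0.108) and Gas5 in all 6 (0.066 to 0.146); both Snhg18 (0.053) and Gas5 (0.084) missed the threshold with voom.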

How the data were processed

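Poly-A RNA of 6 mouse heart libraries was analysed, 3 flox control and 3 CKO, grouped by their titles. The authors deposited FPKM per gene; the submitters' processing notes name CASAVA, HISAT2 2.0.5, featureCounts 1.5.0-p3, DESeq2 1.20.0 and GRCm38.p6, without saying which step made which value, how fragments that touch several genes or map to several copies were counted, or whether strand was used. FPKM times gene length gave whole multiples of 1 step in 100% of values (tolerance 0.001), which recovered reads. The step did not follow the recovered totals: it was 0.0552 in CKO 3, with 19360428 reads, and 0.0514 in CKO 2, with 17872221. FPKM and CPM are therefore on different library scales. Genes averaging 1 FPKM or more were tested on log2(FPKM + 1), pseudocount 1, with limma 3.58.1 in R 4.3.3 (variance trend, 2-sided, Benjamini-Hochberg adjusted p under 0.05); that scale understates changes of low genes. Shared seeds were sought off chromosome 18. Exact permutation tests used 20 arrangements. Host genes came from GENCODE M21, where 54495 of 54532 gene IDs were found and 53499 had the same bounds; of several hosts, the one with the highest FPKM was used. Log2 ratios used reads + 0.5. Members, lists and named genes (members called, best covered or with the largest change at 60 reads or more, their hosts, and up to 4 genes per list) were chosen with earlier results of these data known; some genes were named after their values were seen, among them Mhrt, Myh7b, Snord88c, Snord123, Mir1a-1, Mir23a and Pnpla3. The fit was tested on simulated data. Same-numbered libraries deviated together at correlations of 0.139, 0.060 and -0.005, so numbers were not taken as pairs. Tables and figures used Python 3.11.15, numpy 2.4.6, pandas 2.3.3, scipy 1.17.1, biopython 1.88 and matplotlib 3.10.9.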

Additional observations from a re-analysis of the deposited data

How the results depend on the processing

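Mir208b stayed called in the 11 alternatives beside left-out libraries. Other small RNA calls depended on settings. Genes called overall (1358) numbered 798 with no filter on low values, 715 with the replicate block, and 315 (without flox control 1) to 1490 (without CKO 1) with each library left out. Members called higher (7) numbered 1 with a pseudocount of 0.1 or 0.01, with no filter, with a mean of at least 5 FPKM or with at least 10 reads per library, 0 with voom, 2 with the replicate block and 2 to 7 with a library left out. Members called lower (5) numbered 3 with a pseudocount of 0.1, 2 with 0.01, no filter, 5 FPKM, 10 reads or voom, and 3 to 8 with a library left out. The filters at 5 FPKM and 10 reads test fewer members. The numbers do not pair the libraries, so the block result is given here only. The median difference over members (0.07) was 0.17 with a pseudocount of 0.1, 0.18 with 0.01, -0.15 at 5 FPKM, -0.24 at 10 reads, 0.18 rescaled to TPM, 0.15 with voom, and -0.0357 to 0.120 with a library left out. Member-to-host ratios separated for 9 pairs, for 3 with at least 10 reads per library, and for 16 to 26 with a library left out, where separation of 3 against 2 is easier. Of 76 named genes, 12 changed sign somewhere, none of them called. In order TPM, equal sums and voom, Mir133a-2 gave 0.0489, 0.0483 and 0.0377 and Mir145a 0.0454, 0.0454 and 0.0139; Gm23318 gave 0.0189 and 0.0134 under the first 2. With a library left out the ranges were -0.094 to 0.113 for Snora31, -0.00183 to 0.380 for Gm25835, -0.248 to 0.121 for Gm23935, -0.205 to 0.205 for Mir133a-2, -0.156 to 0.401 for Gm24270, -0.232 to 0.162 for Mir145a, -0.277 to 0.249 for Gm23318, -0.306 to 0.208 for Gm25596, -0.126 to 0.364 for Mir7-1, -0.00672 to 0.0699 for Zmiz2, -0.234 to 0.0102 for Banp and -0.0044 to 0.166 for Peak1. The cause of these changes was not tested.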
